A study of Homo sapiens with 12 samples.

Results

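The promoters of the SLC25 mitochondrial carrier genes were examined for H3K4me3 in BON1, a line of human cells from a neuroendocrine tumor of the pancreas. Members were the protein-coding genes whose symbol is SLC25A followed by digits alone, in GENCODE on GRCh37, on chromosomes 1 to 22 and X. The rule gave 48 of 20098 protein-coding genes. A carrier was called in a library when at least 1 bp of a deposited peak lay within 1 kb of the gene's most 5′ annotated end. The cell populations compared were named in the study's design text BON1/TGL/pQ (the control cells) and BON1/TGL/HA-Bcl-xL (cells made to overexpress Bcl-xL with an HA tag, a protein of mitochondria that counters apoptosis). The labels do not define TGL or pQ, and the growth medium they give held puromycin. CUT&RUN, in which an antibody directs a nuclease to its target in permeabilized cells, was run on 500000 cells per condition with an H3K4me3 antibody or an IgG. Peak lists of 5 H3K4me3 libraries (control replicates 1 to 3, HA-Bcl-xL replicates 2 and 3) and 6 IgG libraries (3 per line) were used, and replicate 1 of H3K4me3 in HA-Bcl-xL cells is not analysed here. Where 5 values follow each other, they stand in the order control replicates 1, 2 and 3, then HA-Bcl-xL replicates 2 and 3. The labels do not say whether replicates were separate cultures, so the tests measure only the spread between these libraries. The study asked whether overexpressed Bcl-xL alters this mark.

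SLC25 proteins form the largest family of transporters in the mitochondrial inner membrane. Each moves a small set of metabolites, such as ADP and ATP, phosphate, citrate, amino acids or cofactors, between cytosol and matrix. They are encoded in the nucleus, transcribed by RNA polymerase II and imported after translation. Some members serve nearly every cell, while others belong to particular tissues, such as testis, liver, heart and muscle, brain or developing red cells. H3K4me3 is laid down around the start sites of active or poised genes, above all at promoters rich in CpG dinucleotides. A peak is therefore a readout of promoter state and not of transcript level, and these libraries contain no RNA measurement.

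The H3K4me3 lists held 10237 to 17687 peaks and the IgG lists 239 to 2106. Median fragment numbers at the summit, solved from each list's own statistics, were 9 to 12 in H3K4me3 and 3 to 5 in IgG. The background floor, a relative measure of depth, was lowest among the H3K4me3 libraries in control replicate 3, at 0.0478 fragments per base against 0.0659 to 0.0705 in the others. That library also had the shortest list. Of 12 neuroendocrine markers, 8 had a peak in at least 1 H3K4me3 library (48.3% of all genes did), and CHGB, NEUROD1, SCG2 and SCG3 had one in all 5 (21.4%). CHGA had one in only 1 library and SYP in 2, and this was the same within 2.5 kb. DDC, ENO2 and INSM1 were among those with none within 1 kb, though within 2.5 kb INSM1 had a peak in all 5 libraries (25.6% of all genes did) and 11 of the 12 markers had one in at least 1 (53.5%). Of 9 markers of blood, endothelium, fibroblast, smooth muscle or liver, ACTA2 had a peak in all 5 libraries and the other 8 had none. Within 2.5 kb 2 of the 9 had one in at least 1 library, ACTA2 and COL1A1 (53.5% of all genes did). At the Ensembl canonical start, a choice made after the data were seen, 0 of the 9 had one (52.1% of all genes did).

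Carrier promoters carried the mark in every H3K4me3 library and in no IgG library. Of the 48 carriers, the 3 control libraries called 28, 17 and 15, against 40.5%, 32.4% and 28.2% of all protein-coding genes. The HA-Bcl-xL libraries called 30 and 24 carriers, against 38.2% and 36.5% of all genes. As shares of the family these are 58.3%, 35.4%, 31.3%, 62.5% and 50%. The IgG libraries gave 0 carriers in all 6, where 0.786% of all genes had a peak in at least 1 of them. H3K4me3 exceeded IgG by 20 carriers in control cells (exact two-sided permutation test, p = 0.1, adjusted p = 0.4). It exceeded IgG by 27 in HA-Bcl-xL cells (exact permutation p = 0.2, adjusted p = 0.4). The ranges of H3K4me3 and IgG did not overlap in either line, and these p-values are the smallest that 3 against 3 and 3 against 2 libraries allow.

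**Figure D1:**
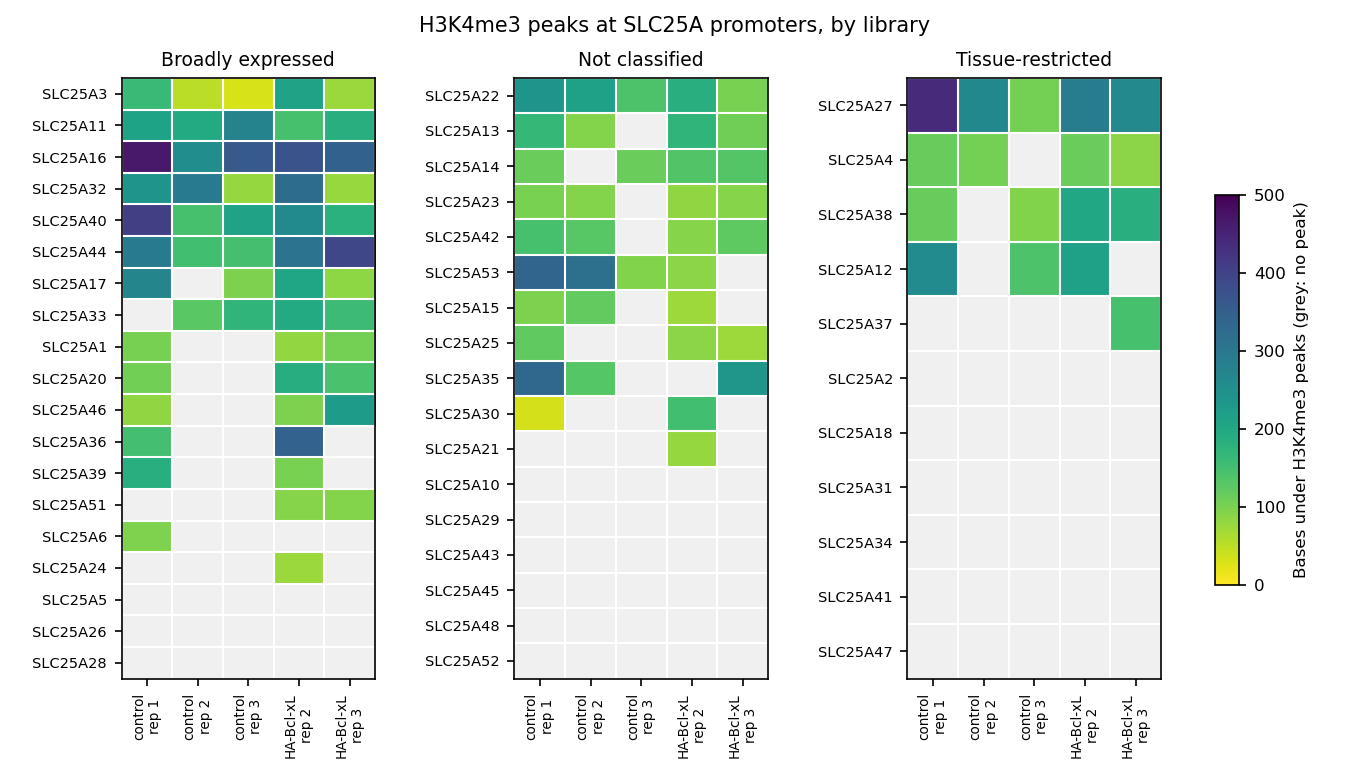
Bases under H3K4me3 peaks within 1 kb of the 5′ end of the carriers reported by name (rows, by expression class) in each of the 5 libraries (columns), on a colour scale from 0 to 500 bases with grey for no peak. Broadly expressed carriers fill most of their upper rows, control replicates 2 and 3 hold the most grey cells, and 6 of 11 tissue-restricted carriers are grey throughout.

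Across libraries, 9 carriers (18.75%) were called in all 5, where 21.4% of all genes were. At least 1 library called 33 carriers (68.75%), against 48.3% of all genes, and no library called 15, against 51.7%. Thus the family lay near the genome in steady calls and above it in occasional ones. Among the 9 steady carriers were SLC25A3, SLC25A11, SLC25A16, SLC25A22, SLC25A27, SLC25A32, SLC25A40 and SLC25A44. A further 9 were called in 4 libraries: SLC25A4, SLC25A13, SLC25A14, SLC25A17, SLC25A23, SLC25A33, SLC25A38, SLC25A42 and SLC25A53. SLC25A1, SLC25A12, SLC25A15, SLC25A20, SLC25A25, SLC25A35 and SLC25A46 were called in 3 and SLC25A30, SLC25A36, SLC25A39 and SLC25A51 in 2. SLC25A6, SLC25A21, SLC25A24 and SLC25A37 were called in 1. The 15 without a call were SLC25A2, SLC25A5, SLC25A10, SLC25A18, SLC25A26, SLC25A28, SLC25A29, SLC25A31, SLC25A34, SLC25A41, SLC25A43, SLC25A45, SLC25A47, SLC25A48 and SLC25A52. Within 2.5 kb, 11 carriers had a peak in all 5 libraries (25.6% of all genes did) and 35 in at least 1 (53.5%). At that width the IgG libraries had 2 calls, SLC25A23 and SLC25A48, each in 1 control IgG library with 3 fragments at the summit, where 1.47% of all genes had one. At any transcript start control IgG replicate 2 had calls at SLC25A14 and SLC25A23, against 2.27% of all genes in at least 1 IgG library.

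Several calls sat beside another gene's start. SLC25A11, SLC25A12, SLC25A22, SLC25A25, SLC25A27, SLC25A32, SLC25A40 and SLC25A46 have the 5′ end of another protein-coding gene within 1 kb on the opposite strand, at 5 to 820 bp. In 8 carriers the strongest peak was nearer to a transcript start of another gene than to any of its own in at least 1 library, and in 7 of them in every library that had a peak. Of the 114 strongest peaks at carriers, 33 were placed in this way. When only peaks nearest to the carrier's own transcript starts were counted, a rule added after the data were seen, carriers called in all 5 libraries numbered 4 (15.9% of all genes) and those called in at least 1 numbered 27 (44.1%). SLC25A3, SLC25A16 and SLC25A44 were among the 4. Peaks shared by a pair of divergent genes cannot be assigned to either from these lists.

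Within 1 kb, cofactor carriers had the highest share of calls among the role groups. Of 7 genes, 4 were called in all 5 libraries (21.4% of all genes) and 6 in at least 1 (48.3%), and the mean share per library was 74.3% ± 12 (SD, n = 5 libraries), where 35.2% ± 4.86 of all genes were called. With peaks nearest to the carrier's own starts alone, 2 were called in all 5 libraries (15.9% of all genes) and 5 in at least 1 (44.1%). By that rule the group of metal carriers and uncoupling relatives had a higher share in at least 1 library, 80% against 71.4%. Ranks of a carrier's strongest peak are given throughout as percentiles of its own list by the authors' deposited −log10 p. SLC25A16, a gene linked to mitochondrial coenzyme A, had 466, 254 and 359 bases in control cells and 372 and 344 in HA-Bcl-xL cells, the largest extent of the steady carriers in control replicates 1 and 3. SLC25A40, a carrier of glutathione, ranked 51.4 to 90.2, with its strongest summit 685 to 798 bp upstream in 4 libraries, beyond the 5′ end of the divergent gene DBF4, and 594 bp downstream in control replicate 3. SLC25A39, the other glutathione carrier, was called only in control replicate 1 (185 bases) and HA-Bcl-xL replicate 2 (101 bases), at ranks of 21.4 and 13.7. The closely related SLC25A39 and SLC25A40 were thus called in 2 and 5 libraries, but all strongest peaks of SLC25A40 were nearer to another gene's start. With peaks nearest to the carrier's own starts alone, the order turned, to 2 libraries for SLC25A39 and 0 for SLC25A40.

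SLC25A32, the folate and FAD carrier, had 242, 296 and 79 bases in control cells and 323 and 78 in HA-Bcl-xL cells, so its low values came from control replicate 3 and HA-Bcl-xL replicate 3. SLC25A42, a coenzyme A carrier, was called in 4 libraries, with its summit 103 to 110 bp upstream in each and ranks of 55.5 to 93.3. SLC25A26, the S-adenosylmethionine carrier, had no peak within 1 kb of its most 5′ end. That end lies 152142 bp upstream of the start of the Ensembl canonical transcript, the annotation's representative isoform, at chr3:66271427. At the canonical start SLC25A26 had peaks in 4 of 5 libraries, missing in control replicate 2.

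Among the 14 nucleotide, phosphate and ATP-Mg carriers, 1 was called in all 5 libraries, 10 in at least 1, and the mean share was 42.9% ± 17.5 (n = 5 libraries). Over all genes the mean share was 35.2%, with 21.4% in all 5 libraries and 48.3% in at least 1, so the group's mean lay within its spread of the genome. SLC25A3, which imports the phosphate used for ATP synthesis, was the steady one. Its bases under peaks within the window were 162, 51 and 30 in control cells and 211 and 76 in HA-Bcl-xL cells. In 4 libraries its strongest summit lay 1029 to 1060 bp into the gene, at the window's edge, so that only part of the peak was counted. In HA-Bcl-xL replicate 2 the strongest summit lay 116 bp downstream of the 5′ end.

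The 4 ADP/ATP carriers, which exchange matrix ATP for cytosolic ADP, differed from each other. SLC25A4, the isoform of heart and muscle, was called in 4 libraries, with 117, 104 and 0 bases in control cells and 115 and 87 in HA-Bcl-xL cells. Its peaks lay in an intron 416 to 553 bp from the 5′ end and ranked low, at 14.2 to 41.1. SLC25A6 was called in control replicate 1 alone, with 96 bases at a rank of 34.4. SLC25A5, the isoform of proliferating cells, and SLC25A31, the testis isoform, stayed without a peak even within 2.5 kb. Among these 4 genes the tissue-restricted SLC25A4 was thus called more often than both broadly expressed paralogues. SLC25A5 has 9 annotated pseudogenes and SLC25A6 has 6, SLC25A6 lies in the region shared by X and Y, and SLC25A4 and SLC25A31 have no annotated pseudogene. SLC25A3, called in all 5 libraries, has 3. How reads with several placements were handled is not given in the sources used here, and the part of such copies in these calls was not tested.

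The 250 bases upstream of 3 ADP/ATP carriers are shown because the genes differ in calls and not in being rich in G and C: SLC25A4 is 71.6% GC there, SLC25A5 74.4% and SLC25A31 63.2%. Capitals mark matches to the motifs searched, on both strands. An SP1-type box is GGGCGG, and the CCAAT box is those letters. A TATA box was read as TATAAA and an ETS motif as CCGGAAGT. The NRF1 motif was its palindrome of GCGCA, any base, and GCGC, and the YY1 motif was AAGATG running into GCGGC. The windows, all on the plus strand of GRCh37, are chr4:186064170-186064419 for SLC25A4, chrX:118602135-118602384 for SLC25A5 and chr4:128651305-128651554 for SLC25A31. The window of SLC25A5 lies wholly in exons of an antisense noncoding gene, SLC25A5-AS1.
SLC25A4: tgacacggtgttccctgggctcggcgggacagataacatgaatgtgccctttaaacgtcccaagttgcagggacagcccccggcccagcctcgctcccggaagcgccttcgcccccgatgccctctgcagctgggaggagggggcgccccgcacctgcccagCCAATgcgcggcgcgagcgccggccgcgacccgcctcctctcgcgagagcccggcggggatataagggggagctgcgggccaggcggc
SLC25A5: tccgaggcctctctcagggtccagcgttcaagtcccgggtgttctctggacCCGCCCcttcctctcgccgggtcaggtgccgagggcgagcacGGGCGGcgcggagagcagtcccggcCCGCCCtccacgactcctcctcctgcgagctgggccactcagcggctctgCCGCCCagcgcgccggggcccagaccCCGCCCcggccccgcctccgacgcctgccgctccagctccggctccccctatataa
SLC25A31: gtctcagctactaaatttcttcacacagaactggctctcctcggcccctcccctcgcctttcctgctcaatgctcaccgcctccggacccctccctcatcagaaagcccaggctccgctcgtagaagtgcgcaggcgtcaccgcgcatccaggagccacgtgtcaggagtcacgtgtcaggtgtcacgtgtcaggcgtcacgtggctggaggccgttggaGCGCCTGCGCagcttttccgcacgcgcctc

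SLC25A4 held a CCAAT box beginning 88 bases before its 5′ end. SLC25A5 held 5 SP1-type boxes, 4 of them on the opposite strand. SLC25A31 held an NRF1 match beginning 30 bases before its 5′ end, on the opposite strand. Matching letters are a description of these windows and say nothing of factor binding. Among all 48 carriers, 4 windows held the NRF1 motif (5.63% of all 20098 promoters did), 27 the SP1-type box (48.8%), 22 the CCAAT box (33.1%) and 3 the TATA box (10.1%). The ETS and YY1 motifs were in 0 carrier windows, against 3.68% and 0.249% of all promoters. NRF1 is known as a regulator of many nuclear genes for respiration.

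The ATP-Mg/phosphate carriers are regulated by calcium and set the adenine nucleotide pool of the matrix. SLC25A23 was called in 4 libraries, with 101, 93 and 0 bases in control cells and 83 and 91 in HA-Bcl-xL cells. Its peak had the highest mean rank of any carrier, 93.6 ± 2.61 (n = 4 libraries), with 19 to 25 fragments at the summit. That summit lay 28 to 43 bp from a transcript start of CRB3, a neighbouring gene, and 700 to 715 bp from the nearest start of SLC25A23. The canonical SLC25A23 transcript starts 5411 bp further downstream, at chr19:6459803, and peaks stood within 1 kb of it in all 5 libraries. SLC25A25 was called in 3 libraries, all with the summit 666 to 679 bp upstream and nearer to the start of NAIF1, whose 5′ end is 5 bp away. SLC25A24 was called in HA-Bcl-xL replicate 2 alone within 1 kb, and in 4 libraries at its canonical start 506 bp downstream. SLC25A41, a testis-enriched relative, had no peak.

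SLC25A33 and SLC25A36, the pyrimidine nucleotide carriers, were called in 4 and 2 libraries. SLC25A33 had 0, 127 and 172 bases in control cells and 194 and 158 in HA-Bcl-xL cells, and its rank ran from 2.60 in HA-Bcl-xL replicate 2 to 66.2 in control replicate 3. SLC25A36 had 149 bases in control replicate 1 and 343 in HA-Bcl-xL replicate 2. The peaks of both lay 795 to 976 bp into the gene. SLC25A17, the peroxisomal member of the family, was called in 4 libraries, with 84 to 272 bases where called. The NAD carrier SLC25A51 was called in HA-Bcl-xL cells alone, as described below, and its close relative SLC25A52 had no peak.

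Of the 13 amino acid and carnitine carriers, 2 were called in all 5 libraries, 7 in at least 1, and the mean share was 41.5% ± 11.7 (n = 5 libraries), near the 35.2% of all genes (21.4% in all 5, 48.3% in at least 1). SLC25A44, which imports branched-chain amino acids, had 292, 151 and 148 bases in control cells and 310 and 393 in HA-Bcl-xL cells. Both HA-Bcl-xL values lie above the 3 control values, but the difference did not pass in the limma fit described below (adjusted p = 0.976). The share of all promoters with this order is not given here. Its strongest peak ranked from 17.3 in control replicate 2, where the only peak lay 624 bp into the gene, to 94.9 in control replicate 3, where the summit was 91 bp upstream.

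Of the glutamate carriers, SLC25A22 was called in all 5 libraries, with 241, 213 and 139 bases in control cells and 185 and 100 in HA-Bcl-xL cells, at ranks of 51.9 to 87.6. Its strongest summits lay 634 to 923 bp into the gene and 85 to 153 bp from a start of PANO1. SLC25A18, the form enriched in brain, had no peak, and with peaks nearest to the carrier's own starts alone both were called in 0 libraries. Of the aspartate-glutamate carriers of the malate-aspartate shuttle, SLC25A13 was called in 4 libraries, with 167, 92 and 0 bases in control cells and 172 and 108 in HA-Bcl-xL cells. SLC25A12, the form of brain and muscle, was called in 3, with 258, 0 and 140 bases in control cells and 213 and 0 in HA-Bcl-xL cells. The peaks counted for SLC25A12 were upstream, nearer to METAP1D, and the canonical SLC25A12 start is 114012 bp away, with peaks there in control replicate 1 and both HA-Bcl-xL libraries.

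SLC25A15, the ornithine carrier of the urea cycle, had 98, 121 and 0 bases in control cells and 73 and 0 in HA-Bcl-xL cells, while the intronless ornithine carrier SLC25A2 had no peak. SLC25A20, the carnitine-acylcarnitine carrier of fatty acid oxidation, was called in 3 libraries, with 107 bases in control replicate 1 and 188 and 143 in HA-Bcl-xL cells. SLC25A38, which serves glycine import for heme synthesis, had 117, 0 and 94 bases in control cells and 203 and 187 in HA-Bcl-xL cells. Both HA-Bcl-xL values of SLC25A38 exceeded those of the control libraries, where the 0 stands for no call. How many other genes have this order is not given here, and the difference was not tested. SLC25A29, SLC25A45, SLC25A47 and SLC25A48 had no peak within 1 kb.

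Of the 6 di- and tricarboxylate carriers, 1 was called in all 5 libraries, 4 in at least 1, and the mean share was 40% ± 14.9 (n = 5 libraries). The shares of all genes were 21.4%, 48.3% and 35.2%. The group's mean lay within its spread of the genome, while its share in at least 1 library, 66.7%, was higher. SLC25A11, the oxoglutarate-malate carrier, had the highest mean rank of the steady carriers, 92.6 ± 4.94 (n = 5 libraries), with 19 to 32 fragments at the summit. Its bases under peaks were 209, 195 and 276 in control cells and 145 and 184 in HA-Bcl-xL cells. The summit lay 506 to 550 bp upstream of SLC25A11 in every library and 55 to 77 bp from a start of RNF167, a divergent gene whose 5′ end is 45 bp from that of SLC25A11. SLC25A1, the citrate carrier that feeds cytosolic fatty acid synthesis, had 102 bases in control replicate 1 and 82 and 104 in HA-Bcl-xL cells. SLC25A35 had 331, 132 and 0 bases in control cells and 0 and 236 in HA-Bcl-xL cells. SLC25A21, the oxodicarboxylate carrier, was called in HA-Bcl-xL replicate 2 alone, and the dicarboxylate carrier SLC25A10 and SLC25A34 were not called.

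**Figure D2:**
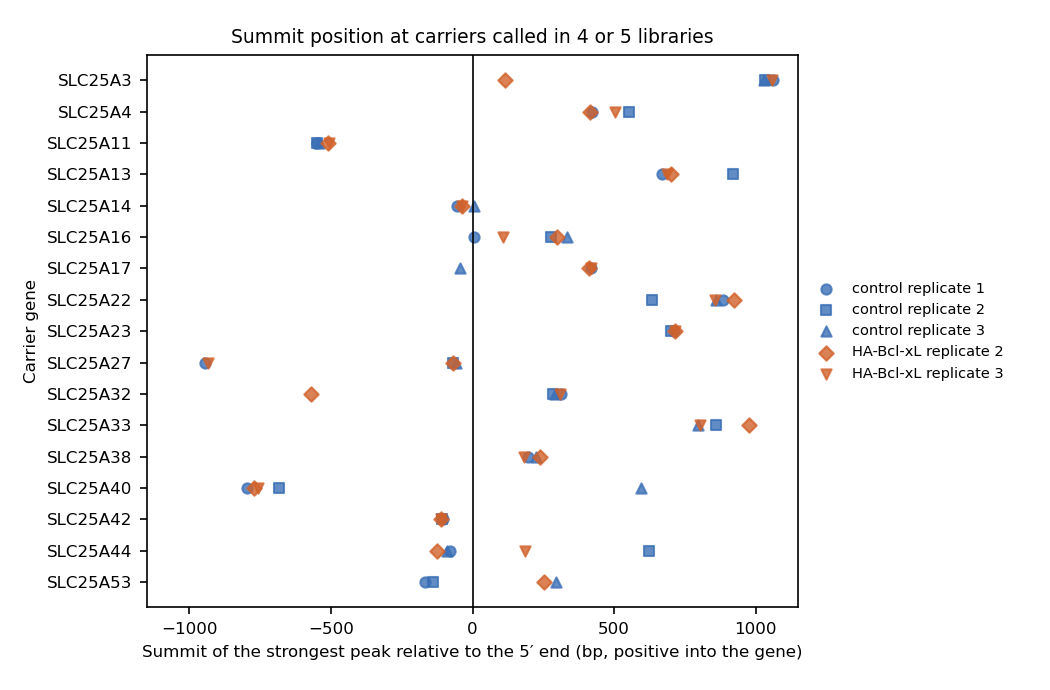
Position of the summit of the strongest H3K4me3 peak relative to the most 5′ end (horizontal axis, bp, positive into the gene) for carriers called in 4 or 5 libraries and reported by name (rows), with 1 symbol per library. Summits of SLC25A11, SLC25A23 and SLC25A42 fall within narrow ranges, while those of SLC25A44, SLC25A32 and SLC25A27 fall in separate places in different libraries.

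Metal carriers and relatives of the uncoupling proteins made up 5 genes, of which 1 was called in all 5 libraries and 4 in at least 1, with a mean share of 48.0% ± 17.9 (n = 5 libraries). Of all genes, 21.4% were called in all 5 and 48.3% in at least 1, with a mean of 35.2%. SLC25A27, a relative of the uncoupling proteins enriched in brain, had 440, 266 and 105 bases in control cells and 291 and 265 in HA-Bcl-xL cells. It was the steady member of the tissue-restricted class. A peak spanning the SLC25A27 5′ end at chr6:46620652 was found in all 5 libraries, and another, 933 to 981 bp upstream, in 4. The divergent CYP39A1 starts 85 bp from SLC25A27, and all strongest summits were nearer to CYP39A1. With peaks nearest to the carrier's own starts alone SLC25A27 was called in 1 library, fewer than the restricted SLC25A4 and SLC25A38 with 4 each. The stretch common to all 5 libraries is shown up to the 5′ end, chr6:46620577-46620651 (GRCh37, plus strand), because it holds the mark at a restricted carrier in every library, with an SP1-type box in capitals.
SLC25A27: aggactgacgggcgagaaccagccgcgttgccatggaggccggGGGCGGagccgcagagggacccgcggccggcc

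The mitoferrins import iron for heme and iron-sulfur clusters, SLC25A28 in most tissues and SLC25A37 in red cell precursors. SLC25A28 had no peak within 1 kb of its most 5′ end, at chr10:101382550, where CpG dinucleotides stood at 0.180 of the number expected from base composition. Its canonical transcript starts 2354 bp downstream, at chr10:101380196. There SLC25A28 had a peak in all 5 libraries, with ranks of 93.1, 82.9 and 86.8 in control cells and 97.9 and 94.8 in HA-Bcl-xL cells, 19 to 35 fragments at the summit, and summits 26 to 47 bp upstream. The SLC25A28 case shows in base pairs how the choice of the 5′ end sets a call, and part of the peak common to all 5 libraries is shown, from the canonical start up to the next annotated exon upstream, as chr10:101380197-101380273 (GRCh37, minus strand) with a CCAAT box in capitals. SLC25A37 was called in HA-Bcl-xL replicate 3 alone, with 145 bases, a rank of 55.7 and 9 fragments. SLC25A14, another uncoupling relative, was called in 4 libraries with summits 53 bp upstream to 4 bp downstream. SLC25A30, a further uncoupling relative, was called in 2, at ranks of 47.2 and 1.24.
SLC25A28: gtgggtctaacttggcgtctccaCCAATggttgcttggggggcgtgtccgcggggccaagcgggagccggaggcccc

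Of the 3 little-studied members, SLC25A46, which acts in the outer membrane, was called in 3 libraries, with 83 bases in control replicate 1 and 99 and 223 in HA-Bcl-xL cells. SLC25A53 was called in all 3 control libraries, with 336, 315 and 94 bases, and in HA-Bcl-xL replicate 2 with 86. SLC25A43 had no peak.

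**Figure D3:**
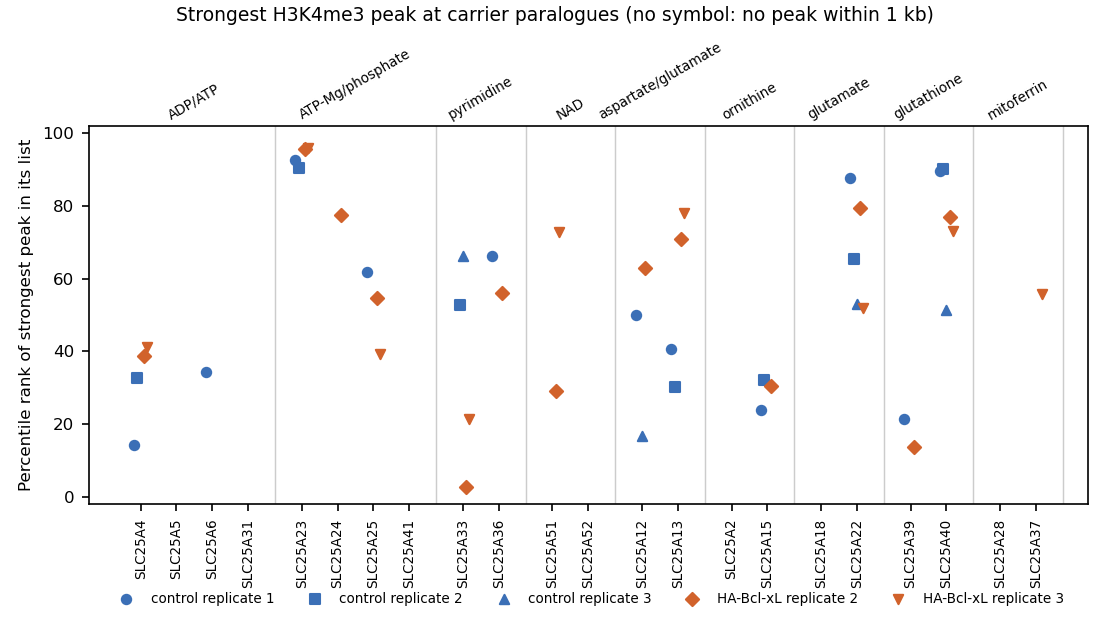
Percentile rank of the strongest H3K4me3 peak within 1 kb in its own list (vertical axis, 0 to 100) for 9 sets of closely related carriers (columns), with 1 symbol per library and no symbol where there was no peak. The symbols of SLC25A23, SLC25A22 and SLC25A40 are high in their sets, though all these peaks lie nearer to a start of CRB3, PANO1 or DBF4, SLC25A4 stays between 14.2 and 41.1, and SLC25A5, SLC25A31, SLC25A41, SLC25A52, SLC25A2, SLC25A18 and SLC25A28 have no symbol.

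Broadly expressed carriers were called more often than tissue-restricted ones in each of the 5 libraries. Classes were assigned by hand from general knowledge of where each gene is expressed: 20 broad, 11 restricted, and 17 not classified. Earlier results of these data were known by then, so the classes may not be independent of the calls. Broad carriers were called at 70%, 40%, 45%, 80% and 65%. Restricted carriers were called at 36.4%, 18.2%, 27.3%, 36.4% and 36.4%. The differences were 33.6, 21.8 and 17.7 percentage points in control cells and 43.6 and 28.6 in HA-Bcl-xL cells, a mean of 29.1 ± 10.2 (SD, n = 5 libraries). All genes were called at 28.2 to 40.5%, below the broad carriers in each library. Restricted carriers were within 1 gene of the share over all genes in 4 libraries and lower in control replicate 2, and at any transcript start HA-Bcl-xL replicate 3 had 45.5% of them against 44.1% of all genes. In all 5 libraries 7 of 20 broad and 1 of 11 restricted carriers were called (21.4% of all genes), and in none 3 and 6 (51.7% of all genes, near the restricted share). No test is given, because both classes were read in the same libraries and genes are not replicates. With only peaks nearest to the carrier's own starts, the mean difference was 29.8 points, and 4 broad and 0 restricted carriers were called in all 5 libraries, where 15.9% of all genes were.

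**Figure D4:**
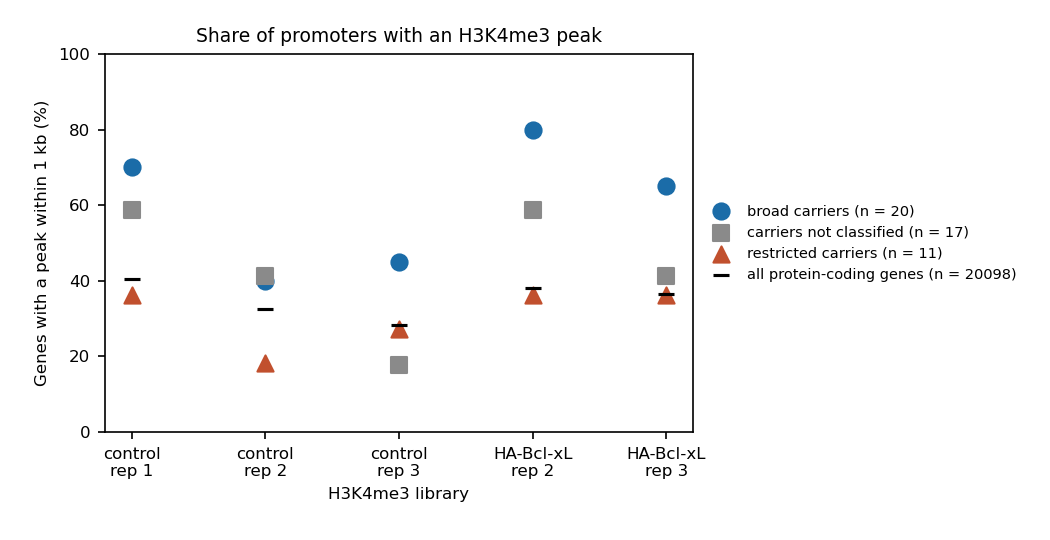
Share of genes called for H3K4me3 within 1 kb (vertical axis, %) in each of the 5 libraries (horizontal axis) for broad, unclassified and restricted carriers and for all protein-coding genes (dash). Broad carriers lie 17.7 to 43.6 points above restricted carriers, and control replicates 2 and 3 have the lowest shares.

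Exceptions ran both ways. SLC25A27, SLC25A4, SLC25A38, SLC25A12 and SLC25A37 were restricted carriers with a peak in at least 1 library. The restricted carriers without one were SLC25A2, SLC25A18, SLC25A31, SLC25A34, SLC25A41 and SLC25A47, among them SLC25A31 of testis and SLC25A47 of liver. The broad carriers without one were SLC25A5, SLC25A26 and SLC25A28. At the canonical start SLC25A26 and SLC25A28 had peaks in 4 and 5 libraries, and SLC25A5 alone among the broad carriers had none. With that start the mean difference between classes was 43.1 points. This use of the canonical start was chosen after the data were seen. At that start 11 carriers were called in all 5 libraries (23% of all genes) and 36 in at least 1 (52.1%). Taking any transcript start, 13 were called in all 5 (26.5%) and 36 in at least 1 (56.7%).

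Carriers with and without a peak differed in CpG content, and so did all genes. The ratio of observed to expected CpG dinucleotides was taken over the 1001 bases centred on the 5′ end, and a dividing value of 0.6 was chosen after the values were seen. Of 38 carriers at or above 0.6, 32 (84.2%) had a peak in at least 1 library, where 71.3% of 12000 genes did. Of 10 carriers below it, 1 had a peak (SLC25A23, the peak beside CRB3), where 14.2% of 8098 genes did. The CpG-rich carriers without a peak were SLC25A2, SLC25A5, SLC25A10, SLC25A29, SLC25A31 and SLC25A43. SLC25A10 and SLC25A29 were among the richest in GC, at 76.9% and 77.6%. Among CpG-rich carriers 17 of 18 broad and 5 of 7 restricted genes had a peak, and among the rest 0 of 2 broad and 0 of 4 restricted genes did. At or above 0.6 stood 18 of 20 broad and 7 of 11 restricted carriers, and the part of CpG content in the class difference was not tested. Median ratios were 0.824 in broad, 0.791 in restricted and 0.733 in unclassified carriers, against 0.686 over all genes.

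**Figure D5:**
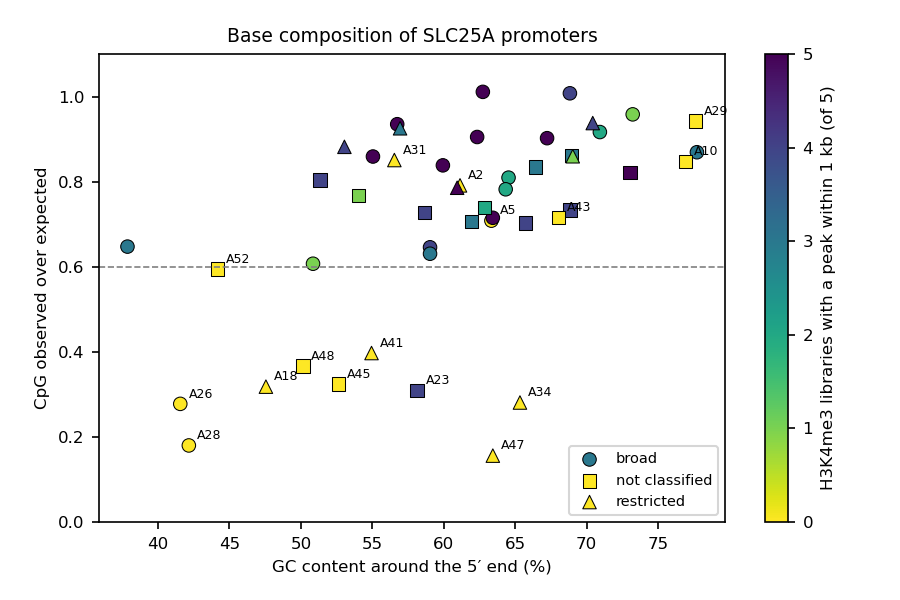
CpG observed over expected (vertical axis) against GC content in % (horizontal axis) of the 1001 bases centred on the 5′ end of each carrier, with the symbol for class and the colour for the number of H3K4me3 libraries with a peak (0 to 5). Of the 10 carriers under the dashed line at 0.6, SLC25A23 alone is coloured above 0, and the carriers in 5 libraries all lie above the line.

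Between the lines, the family as a whole did not pass a test. Control libraries called 20 ± 7 carriers (n = 3) and HA-Bcl-xL libraries 27 ± 4.24 (n = 2). The difference of 7 carriers gave p = 0.4 in the exact two-sided permutation test, where 3 against 2 libraries cannot go below 0.2 (adjusted p = 0.533 over 4 tests). Control replicate 1, with 28 carriers, lay between the HA-Bcl-xL libraries. Bases under peaks summed over the 48 windows were 5752, 2991 and 2156 in control cells and 5370 and 3829 in HA-Bcl-xL cells, a log2 difference of 0.44 (exact permutation p = 0.6, adjusted p = 0.6). Control replicates 2 and 3 were lowest in both measures and also had the shortest H3K4me3 lists, and the part of list length in the difference was not tested. On equal list lengths the differences were 3.17 carriers and 0.15 in log2 bases, and without control replicate 1 they were 11 and 0.84.

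SLC25A51, which brings NAD into the matrix, was the carrier that every HA-Bcl-xL library called and no control library did, a pattern that 0.846% of all genes had. It had 90 and 93 bases in HA-Bcl-xL replicates 2 and 3, at ranks of 29.1 and 72.8 with 8 and 12 fragments at the summit. The peaks lay in an intron 877 to 898 bp from the 5′ end at chr9:37904350. Control replicates 1 and 3 had peaks slightly further into the gene, with summits at 1241 and 1093 bp, outside the window, so SLC25A51 no longer followed the pattern within 2.5 kb. SLC25A51 has 5 annotated pseudogenes. The stretch under the peaks of both HA-Bcl-xL libraries is shown because it carries the call, as chr9:37903419-37903492 (GRCh37, minus strand), and it held no match to the motifs.
SLC25A51: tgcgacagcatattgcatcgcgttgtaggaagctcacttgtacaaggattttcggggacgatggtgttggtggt

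No carrier was called in all control libraries and in neither HA-Bcl-xL library, a pattern of 0.249% of all genes. These counts rested on single libraries. Without control replicate 1, 5 carriers followed the HA-Bcl-xL pattern, namely SLC25A1, SLC25A20, SLC25A25, SLC25A46 and SLC25A51, and 3.06% of all genes did. Without HA-Bcl-xL replicate 2 there were 2, SLC25A37 and SLC25A51 (2.32% of all genes), and SLC25A53 followed the control pattern (1.16%). Without HA-Bcl-xL replicate 3 there were 3, SLC25A21, SLC25A24 and SLC25A51 (2.53%). With a deposited −log10 q of at least 5 the carrier in the HA-Bcl-xL pattern was SLC25A4 in place of SLC25A51 (0.836% of all genes). On equal list lengths it was none (0.776%), with SLC25A53 in the control pattern (0.393%).

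Peak extent at the 9 steady carriers was compared between lines with limma, fitted on log2 bases under peaks over all 4291 promoters called in all 5 libraries. The fit called 0 promoters (0.0%) at a Benjamini-Hochberg adjusted p below 0.05, and 211 (4.92%) had an unadjusted p below 0.05. The smallest adjusted p was 0.824. Leaving out control replicate 2, HA-Bcl-xL replicate 2 or HA-Bcl-xL replicate 3 gave 1, 3 and 9 promoters, the latter fits with a lone HA-Bcl-xL library assumed to vary like the controls. Among the carriers SLC25A3 had a log2 difference of 0.88 (SE 0.53), SLC25A44 of 0.77 (SE 0.40), SLC25A22 of -0.63 (SE 0.41) and SLC25A11 of -0.58 (SE 0.45), HA-Bcl-xL over control. The lowest of the other 5 was -0.30, in SLC25A32. Adjusted p-values were 0.976 for SLC25A44 and 0.988 for the other 8. The median over the 9 was -0.09 and over all promoters tested -0.03, with 4 carriers higher and 5 lower in HA-Bcl-xL cells. None of the 9 differences passed the test against the spread between libraries. A separate fit with the replicate number as a block called 13 of the 4291 promoters, though these numbers are not shown to pair the libraries.

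The strongest peak at a called carrier had a median rank of 58.5 to 66.3 across the 5 libraries, and that at any called gene 64.1 to 68.4. Its summit lay a median of 183 to 354.5 bp into the gene at carriers and 33 to 50 bp at all called genes. Fragments at the strongest summits of carriers ran from 4 to 32, so the weakest calls, such as SLC25A30 and SLC25A14 at 4 in an HA-Bcl-xL library each, rest on few fragments. The lists record called peaks alone, so a missing call is not an absence of the mark.

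Genes that work with the carriers were read in the same way. The import machinery through which carriers pass the outer membrane and reach the inner one was called in 76% ± 16.7 of 10 genes per library (n = 5 libraries). Of these, 5 were called in all 5 libraries, namely TIMM9, TIMM22, TIMM29, TOMM22 and TOMM70, and all 10 in at least 1. Over all genes these shares were 35.2% per library, 21.4% in all 5 and 48.3% in at least 1. Of 12 other mitochondrial channels and metabolite transporters, 6 were called in all 5 libraries (21.4% of all genes) and 8 in at least 1 (48.3%), including MCU, the calcium uniporter pore, and VDAC1, the outer membrane channel to which Bcl-xL is known to bind. Of the 5 members of the SLC25 family with other symbols, MTCH2 was called in 3 libraries and MTCH1 in 1, while the uncoupling protein genes UCP1, UCP2 and UCP3 had no peak within 1 kb.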

How the data were processed

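H3K4me3 and IgG were profiled by CUT&RUN, and the deposited files were narrowPeak lists, with peaks called in each library on its own. Per the submitters' processing notes the tools were bcl2fastq 2.20, Trimmomatic 0.36, Bowtie2 2.2.9, MACS2 2.1.1 and deepTools 3.5.1, with build hg19. Each deposited peak has a score, a fold enrichment ratio, a −log10 p and a −log10 q from the authors, and the largest q-value was 0.01. Scores were not used, and −log10 p ranked peaks within their own list. Fold and −log10 p gave a whole number of fragments at the summit (tolerance 0.001 in −log10 p) in 95.8 to 99.97% of a list's peaks. The lists give no read totals, so depth is relative.

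Genes came from GENCODE release 44 lifted to GRCh37, and sequences from the GRCh37 genome. Peaks on chromosomes 1 to 22 and X were used. The labels gave groups and replicate numbers. Counts and summed bases were compared by two-sided exact permutation tests over libraries, with Benjamini-Hochberg adjustment over 4 tests. For bases under peaks limma 3.58.1 (R 4.3.3) was used, each library centred on its median. The fragment numbers, the promoter call and limma were tested on simulated data. The permutation test was checked against that of scipy on a small set of values. Python 3.11.15, numpy 2.4.6, pandas 2.3.3, scipy 1.17.1 and matplotlib 3.10.9 were used. Full values were given for carriers called in all 5 libraries, those called in all libraries of 1 line alone, restricted carriers with a peak, broad carriers without one, and 9 sets of paralogues, other carriers more briefly. The members, lists and classes were chosen with earlier results of these data known. Fragment numbers cover counting error only, because PCR copies are not separate molecules. One carrier counted in every total, one marker and one promoter sequence are not reported here.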

Additional observations from a re-analysis of the deposited data

How the results depend on the processing

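Of 70 values recomputed under another setting, 60 stayed on the same side of the threshold, within the spread between libraries or within 1.5 times the count, and 10 did not. None reversed. The mean difference in share between broad and restricted carriers was 42.1 points within 2.5 kb, 44.3 at any transcript start and 43.1 at the canonical start. It was 21.4 with unclassified carriers counted as restricted, 22.9 on equal list lengths, 24.5 at a −log10 q of at least 5 and 25.1 by summit. Carriers called in both HA-Bcl-xL and no control library numbered 0 within 2.5 kb, at any transcript start, at the canonical start and on equal list lengths, where the control pattern held 1. Carriers called in all H3K4me3 libraries numbered 4 when peaks nearest another gene were left out. The canonical start and the removal of peaks nearest another gene were chosen after seeing the data, and the causes of these shifts were not tested. No carrier had an IgG peak within 1 kb of its most 5′ end, and removing peaks that overlap IgG peaks, run for 6 results, left their values as they were. It was not run for the H3K4me3 against IgG differences or for limma. Leaving out 1 library at a time moved 7 of 46 values, and here too the exact tests could change only by reversing. The HA-Bcl-xL pattern held 1 to 5 carriers, the control pattern 0 to 1, and limma called 0 to 9 promoters. The difference between the lines ran from 4 to 11 carriers and from 0.13 to 0.84 in log2 bases. With the replicate number as a block, limma called 13 of 4291 promoters (278 at an unadjusted p below 0.05), and over the 2 numbers both lines have the difference was 11 carriers (exact permutation p = 0.5). Deviations of same-numbered libraries correlated at 0.0258 and 0.0483 over 2 pairs, so the numbers are not shown to pair the libraries. Depth is known only as fragments at called summits, so signal at uncalled promoters cannot be read.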
